A study of Mus musculus with 12 samples.

Results

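The genes Cst7, Cst3, Nkg7, Klrd1, Gzmm, Ctsw, Ctsb, Ctsd, Ctss and Lamp1 encode proteins of cytotoxic granules and lysosomes, inhibitors of their proteases, and a receptor chain of killer lymphocytes. They were chosen by symbol, and all 10 had a row among the 11581 genes of the deposited table. The scurfy group held unstimulated CD8 T cells of bone marrow chimeras that received OT-1 Foxp3Scurfy CD45.1+/2+ marrow together with CD45.2+ marrow. Scurfy mice lack working Foxp3, a transcription factor studied above all in regulatory T cells. The wild-type group came from chimeras made with OT-1 Foxp3wt CD45.1+/2+ marrow and CD45.2+ marrow. Both groups carry CD45.2+ C57BL/6 J as strain and were sampled 2 months after reconstitution, and OT-1 is a transgenic T cell receptor that recognises the SIINFEKL peptide of ovalbumin. Each group had 3 unstimulated libraries. A further 6 libraries, of cells given peptide for 6 h, were not analysed here. The labels call the cells highly purified CD8 T cells, and the way cells of the OT-1 marrow were parted from those of the CD45.2+ marrow was not stated there. Nor do the labels tie libraries to separate mice, so p-values reflect only the variation among these samples, possibly technical.

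Cytotoxic T cells keep their killing proteins in secretory lysosomes, where perforin and granzymes are stored with ordinary lysosomal proteases. Papain-type cathepsins are cysteine proteases of that compartment, and cathepsin C among them activates granzymes by removing a short N-terminal peptide. Cystatins are tight-binding inhibitors of papain-type cathepsins. Cystatin F, the product of Cst7, is made by leukocytes and carried to lysosomes, whereas cystatin C, the product of Cst3, is mostly secreted.

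The libraries held between 8852518 and 23149523 reads over the table, wild-type library 2 being the deepest. Values are the authors' normalized read counts, in which 1 read is worth between 0.483 and 1.33. The first principal component of the log2 values held 35.8% of the variance. It put the scurfy libraries between 14.4 and 43.5, with library 3 standing apart from libraries 1 and 2, and the wild-type libraries between -33.8 and -12.3. All 10 markers of CD8 T cells had a row, 9 of them with a positive log2 fold change, and the median was 0.21. The summed level of these markers was 72779 to 81269 in scurfy and 65173 to 66439 in wild-type libraries, with Cd3d and Cd2 called higher. Cd8b1 was level, with means of 21566 ± 300 (scurfy) and 21498 ± 203 (wild type) normalized counts (SD, n = 3 each). None of the 3 markers of CD4 T cells (Cd4, Zbtb7b and Cd40lg) had a row. Foxp3 had none either, so the genotype labels were not checked on the transcript of the mutated gene. Of 11 B cell markers 4 had a row, mostly Ighm, with summed levels of 9885 to 11790 in scurfy and 10879 to 11774 in wild-type libraries.

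Transcripts of the cystatins Cst7 and Cst3 and of the granule protein Nkg7 were higher in scurfy cells. Those of the receptor chain Klrd1 were lower. Cst7 rose by 1.13, Nkg7 by 0.76 and Cst3 by 0.59 on the log2 scale, and Klrd1 fell by 0.65. Messenger RNA of the 4 cathepsins, of the serine protease Gzmm and of the lysosomal membrane protein Lamp1 did not pass the test. The test was limma on log2(value + 1) over all genes, with a threshold of 0.05 on the Benjamini-Hochberg adjusted p. Of the 10 genes 3 were called higher and 1 lower. Across all genes limma called 4.47%, of which 2.12% were higher (246 genes) and 2.35% lower (272 genes). Scaling by library size alone split the calls as 169 higher and 761 lower. In the authors' deposited table the adjusted p was 8.37e-06 for Cst7, 8.69e-05 for Nkg7, 0.00198 for Cst3 and 0.00553 for Klrd1. For 6 of the 10 genes all scurfy values lay on one side of all wild-type values, 4 above and 2 below, which was so for 27.1% of all genes. The median log2 fold change of the 10 genes was 0.11, against 0.01 over all genes. These genes were picked with earlier results of the same libraries known, so their share of calls is a description. In bulk RNA, fewer cells that express a gene and less RNA per cell cannot be told apart.

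**Figure D1:**
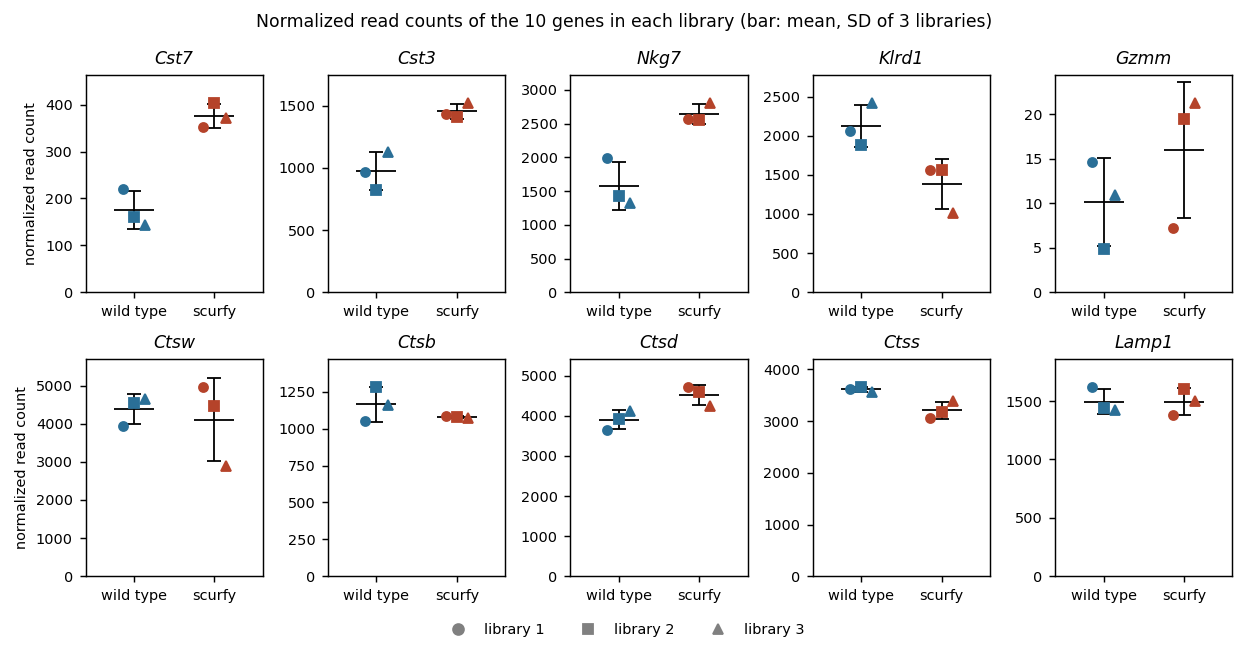
Normalized read count (linear axis from 0) of each of the 10 genes in every unstimulated library, by group, with the mean and SD of 3 libraries. Scurfy libraries lie above every wild-type library for Cst7, Cst3, Nkg7 and Ctsd and below every one for Klrd1 and Ctss, and for Klrd1 and Ctsw scurfy library 3 (triangle) is the lowest of all 6.

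Cst7 (ENSMUSG00000068129, chromosome 2) had the largest change among the 10. It was at 354, 404 and 371 normalized counts in scurfy libraries 1 to 3 and at 221, 159 and 144 in wild-type libraries 1 to 3. The lowest scurfy value was thus well above the highest wild-type value. The means were 376 ± 25.6 and 175 ± 40.7 (SD, n = 3 each), with a log2 difference of 1.13 (SE 0.19, limma adjusted p = 0.00750). Between 166 and 331 reads stood behind each value. The call held in all 6 fits that omit 1 library, the highest adjusted p being 0.0348, and the authors' deposited table gave a log2 fold change of 1.12 (SE 0.21). Short genes had higher values in scurfy libraries. The median log2 fold change was 0.33 over 1098 genes whose exons add up to less than 1000 bases and -0.05 over 5881 genes above 4000 bases. Cst7 has 986 bases of exon, and with the trend on length taken out its change was 0.92 (adjusted p = 0.0224).

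Cst3 (ENSMUSG00000027447, chromosome 2) shifted by less and its groups also stayed apart. Its scurfy libraries were at 1435, 1406 and 1523 normalized counts and its wild-type libraries at 970, 821 and 1131. The means were 1454 ± 60.7 and 974 ± 155 (SD, n = 3 each), with a log2 difference of 0.59 (SE 0.13, limma adjusted p = 0.0202). The call ended without scurfy library 2 (adjusted p = 0.0562), scurfy library 3 (0.0514) or wild-type library 2 (0.0815). It also ended with the length trend taken out (0.44, adjusted p = 0.0830) and with scaling by library size alone (0.45, adjusted p = 0.0529). Cst3 is abundant in dendritic cells and macrophages as well. Of 19 myeloid markers only Cd68 and Fcgr3 had a row, with summed levels of 99.3 to 172 normalized counts in scurfy and 95.7 to 120 in wild-type libraries. Cd68 stood at 61.8, 57.4 and 56.7 in the scurfy libraries against 34.6, 29.0 and 41.1, a difference that did not pass (log2 fold change 0.74, adjusted p = 0.210). Of 12 dendritic cell markers 6 had a row, 4 with a negative and 2 with a positive log2 fold change, and the median was -1.67. Their summed levels, mostly Ccr7, were 6818 to 7771 in scurfy and 6317 to 6654 in wild-type libraries. T cells express Ccr7 too, so this sum is no measure of dendritic cells. The class II gene H2-Aa fell, from 57.2, 84.1 and 73.9 in wild type to 15.7, 0 and 4.73 in scurfy libraries (log2 fold change -3.97, limma adjusted p = 0.0164), and H2-Ab1 was at 0 in scurfy libraries 2 and 3. The part of myeloid and dendritic cells in the results on Cst3, Cst7 and Nkg7 was not tested.

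Cst7 and Cst3, both called higher, were each higher in every scurfy library than in any wild-type library, so their sum had to be too. It was set against the papain-type cathepsins as a description. Cst7 and Cst3 together came to 17.0, 17.9 and 21.3 normalized counts per 100 counts of the 8 papain-type cathepsin genes with a row (Ctsb, Ctsc, Ctsk, Ctsl, Ctso, Ctss, Ctsw and Ctsz) in scurfy libraries 1 to 3. The wild-type libraries were at 11.8, 9.0 and 11.7. The cystatin sum was 1831 ± 55.6 in scurfy and 1149 ± 152 in wild type, and the cathepsin sum 9845 ± 838 and 10636 ± 443 (SD, n = 3 each). Left out of the cystatin sum was Cstb, another cystatin gene, at 1574 ± 112 in scurfy and 1392 ± 127 in wild type. It was not called, so the ratio does not cover all cystatins with a row. The ratio of Cst7 to Ctsc, the gene of the granzyme-activating cathepsin, was 0.633, 0.676 and 0.553 in scurfy libraries and 0.395, 0.284 and 0.248 in wild type. Ctsc itself was at 609 ± 57.4 and 566 ± 11.1 and did not pass (log2 fold change 0.10, adjusted p = 0.698). These sums join genes of different exonic length and compare libraries, and they were not tested. Cst7 has 986 and Cst3 1266 bases of exon, and the 8 cathepsin genes from 1358 (Ctss) to 6489 (Ctsl). Short genes had higher values in scurfy libraries, and the ratios were not corrected for that trend.

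**Figure D2:**
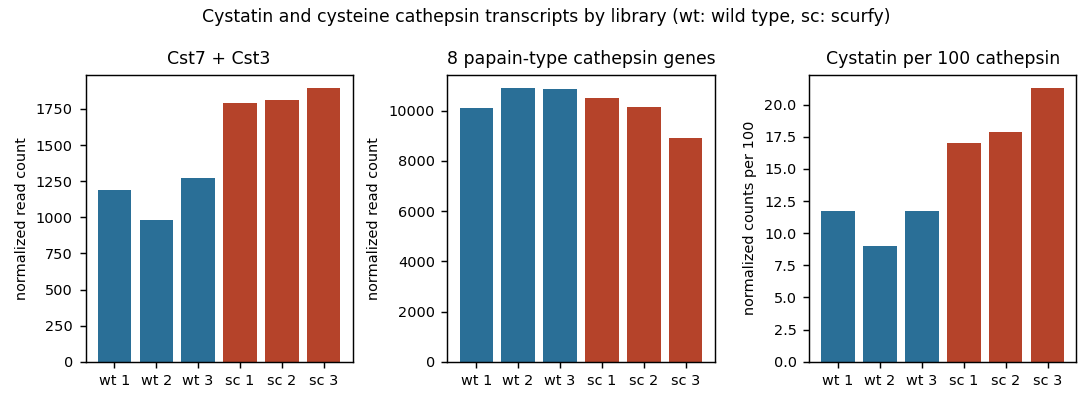
Summed normalized read counts of Cst7 and Cst3 (left), of 8 papain-type cathepsin genes (middle) and the cystatin sum per 100 cathepsin counts (right), 1 bar for each of 3 wild-type and 3 scurfy libraries, axes from 0. The cystatin sum lies between 1788 and 1894 in scurfy and between 981 and 1275 in wild-type libraries, while the cathepsin sums of the groups overlap.

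Nkg7 (ENSMUSG00000004612, chromosome 7) encodes a granule membrane protein that cytotoxic lymphocytes need for full degranulation. It was at 2572, 2551 and 2807 normalized counts in scurfy libraries and at 1986, 1428 and 1326 in wild-type libraries. All scurfy values lay above the wild-type range, in which library 1 was the highest. The means were 2643 ± 143 and 1579.9 ± 355 (SD, n = 3 each), with a log2 difference of 0.76 (SE 0.14, limma adjusted p = 0.00918). The call held in all 6 fits that omit 1 library, the highest adjusted p being 0.0429. With 914 bases of exon Nkg7 is the shortest of the 10 genes, and with the length trend taken out its change was 0.53 (adjusted p = 0.0422).

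Klrd1 (ENSMUSG00000030165, chromosome 6) encodes CD94, the chain that pairs with NKG2 chains to form receptors for the class I molecule Qa-1. It was the only gene of the 10 called lower. Its scurfy libraries were at 1567, 1556 and 1008 normalized counts and its wild-type libraries at 2063, 1885 and 2419.7. The groups did not overlap, and scurfy library 3 was far below the other scurfy libraries. The means were 1377 ± 319 and 2123 ± 272 (SD, n = 3 each), with a log2 difference of -0.65 (SE 0.16, limma adjusted p = 0.0339). The call ended without scurfy library 3 (log2 fold change -0.43, adjusted p = 0.0726), wild-type library 1 (adjusted p = 0.0924), wild-type library 2 (0.0560) or wild-type library 3 (0.124). With the length trend taken out the value was -0.79 (adjusted p = 0.0198). Of 11 natural killer cell markers only Prf1, Eomes and Il2rb had a row, and none passed, nor had any an unadjusted p under 0.05. Their summed level was 843 to 984 normalized counts in scurfy and 925 to 999 in wild-type libraries. CD8 T cells can express Prf1, the gene of perforin, Eomes and Il2rb as well, so this sum does not single out natural killer cells. The other listed markers, such as Ncr1 and Klrb1c, had no row. The part of natural killer cells in the Klrd1 result was not tested.

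The remaining granule proteases were not called. Ctsw (ENSMUSG00000024910, chromosome 19) encodes cathepsin W, a papain-type protease made by CD8 T and natural killer cells. It was at 4962, 4467 and 2885 normalized counts in scurfy and at 3944, 4552 and 4659.7 in wild-type libraries, so that scurfy libraries 1 and 3 held its highest and lowest values. Its log2 fold change was -0.13 with a 95% interval from -0.49 to 0.23 (limma adjusted p = 0.698), and 0.11 without scurfy library 3. Gzmm (ENSMUSG00000054206, chromosome 10) encodes granzyme M, a serine protease of cytotoxic granules. It was listed at 7.27, 19.5 and 21.3 in scurfy and at 14.6, 4.83 and 10.9 in wild-type libraries, from 6 to 18 reads each. The groups overlapped. The interval of its log2 fold change of 0.60 ran from -0.85 to 2.05 and so also holds the estimate for Cst7.

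Ctsb, Ctsd and Ctss encode general endolysosomal proteases. Cathepsin B is a papain-type enzyme, cathepsin D an aspartic protease that cystatins do not bind, and cathepsin S a papain-type enzyme known for cutting the class II invariant chain. Ctsd (ENSMUSG00000007891, chromosome 7) was at 4718, 4588 and 4237 normalized counts in scurfy and at 3655, 3916 and 4124 in wild type. The groups did not overlap but lay close together, with a log2 fold change of 0.21 (95% interval from -0.0015 to 0.42, limma adjusted p = 0.238). Ctss (ENSMUSG00000038642, chromosome 3) went the other way, at 3059, 3176 and 3393 against 3629, 3660.2 and 3562. Its log2 fold change was -0.17 (95% interval from -0.38 to 0.03, adjusted p = 0.320), again without overlap and without a call. Ctsb (ENSMUSG00000021939, chromosome 14) was at 1085, 1081 and 1073 in scurfy and at 1051, 1283 and 1159 in wild type, the scurfy values lying inside the wild-type range. Its log2 fold change was -0.10 (95% interval from -0.35 to 0.14).

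Lamp1 (ENSMUSG00000031447, chromosome 8) encodes the abundant lysosomal membrane glycoprotein CD107a, which reaches the cell surface when granules fuse. It was at 1379, 1607 and 1499 normalized counts in scurfy and at 1620.4, 1442 and 1422 in wild type. Its groups overlapped fully and the means were 1495 ± 114 and 1495 ± 109 (SD, n = 3 each). The 95% interval of its log2 fold change ran from -0.24 to 0.24, and its value was -0.14 with scaling by library size alone. The estimates for Cst7, Nkg7, Cst3, Klrd1 and the uncalled Gzmm lie outside that interval, and differences between genes were not tested.

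**Figure D3:**
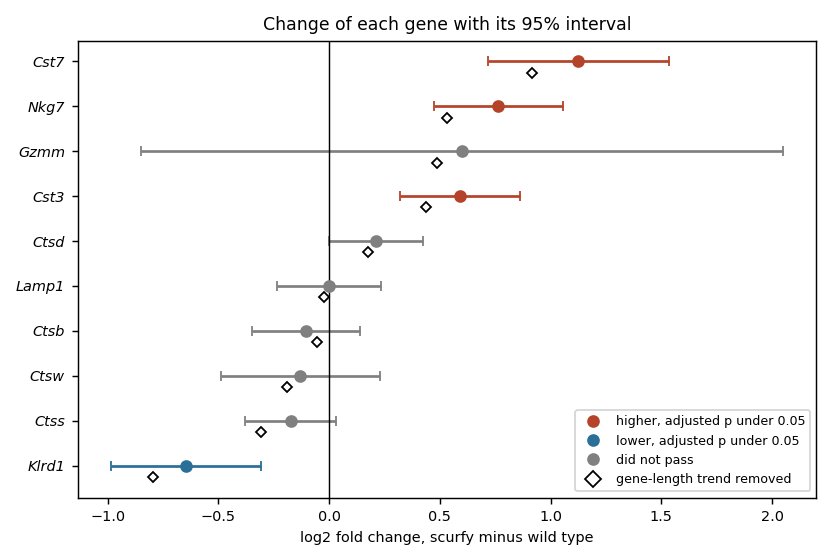
Log2 fold change of each of the 10 genes (scurfy minus wild type, log2(value + 1) scale) with its 95% interval from limma over 3 and 3 libraries, and the value with the trend on gene length taken out (open diamonds). The intervals of Cst7, Nkg7 and Cst3 lie above 0 and that of Klrd1 below, and taking out the length trend moves Cst7 from 1.13 to 0.92 and Klrd1 from -0.65 to -0.79.

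Per kilobase of exon, the 10 genes covered a wide range of levels. The libraries were primed at the poly(A) tail, so counts may not scale with length, and a level per kilobase compares genes only roughly. In scurfy the means per kilobase were 2892 normalized counts for Nkg7, 2363 for Ctss, 2175 for Ctsw and 1920.0 for Ctsd. In wild type they were 2663 for Ctss, 2324 for Ctsw, 1729 for Nkg7 and 1658 for Ctsd, so the order of these genes differed between the groups. Klrd1 was at 1075 in scurfy and 1657 in wild type, and Cst3 at 1149 and 769.6. Lamp1 was at 559 in both groups. Cst7 was above Ctsb in scurfy (382 against 178) and close to it in wild type (177 against 192). By count, without division by length, Cst7 was below Ctsb in both groups (376 against 1080 in scurfy, 175 against 1164 in wild type). Gzmm, at 10.9 and 6.88, lay below all others in each of the 6 libraries. The order also turned with the set of transcripts behind the length: over the basic transcripts only, a choice made after seeing the data, the mean of the 6 libraries was 3421 for Ctsw against 2513 for Ctss, and over all transcripts it was 2249.6 against 2513.

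The upstream sequences of these genes differ in the E-box core CACGTG, the centre of the element through which the factor Tfeb is known to act on lysosomal genes. They are shown for Lamp1 and Ctsd, which hold the core, and for Cst7 and Nkg7, the most changed of the 10 genes, which do not. Each is the 250 bases before the annotated start, 5′ to 3′ on the strand of the gene, from RefSeq on GRCm38.p6, with the core in capitals. Lamp1 lies at chr8:13158911-13159160 (plus strand), Ctsd at chr7:142387828-142388077 (minus strand), Cst7 at chr2:150570165-150570414 (plus strand) and Nkg7 at chr7:43436888-43437137 (plus strand).
Lamp1: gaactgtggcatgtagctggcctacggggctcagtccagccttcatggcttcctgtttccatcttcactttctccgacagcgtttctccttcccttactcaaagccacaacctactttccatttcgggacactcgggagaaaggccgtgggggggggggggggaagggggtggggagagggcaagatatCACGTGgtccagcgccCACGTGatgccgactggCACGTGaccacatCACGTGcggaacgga
Ctsd: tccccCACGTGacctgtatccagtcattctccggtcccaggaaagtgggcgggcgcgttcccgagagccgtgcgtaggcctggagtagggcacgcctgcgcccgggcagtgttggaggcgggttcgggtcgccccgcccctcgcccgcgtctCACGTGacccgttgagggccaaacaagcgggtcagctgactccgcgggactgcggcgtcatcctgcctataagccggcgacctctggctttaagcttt
Cst7: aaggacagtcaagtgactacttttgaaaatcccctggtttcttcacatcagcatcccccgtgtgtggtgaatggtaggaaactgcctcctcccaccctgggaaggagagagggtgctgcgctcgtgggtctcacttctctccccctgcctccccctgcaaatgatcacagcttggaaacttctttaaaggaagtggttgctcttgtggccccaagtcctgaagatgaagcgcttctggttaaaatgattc
Nkg7: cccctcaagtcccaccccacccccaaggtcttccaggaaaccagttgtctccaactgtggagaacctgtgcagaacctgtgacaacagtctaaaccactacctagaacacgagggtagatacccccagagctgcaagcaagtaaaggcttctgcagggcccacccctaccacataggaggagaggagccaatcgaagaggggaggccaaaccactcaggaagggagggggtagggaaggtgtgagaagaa

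Of the 10 genes 7 had a RefSeq promoter entry (Cst3, Cst7, Ctss, Nkg7, Ctsd, Lamp1 and Gzmm, the last with 2 starts). The core, which reads the same on both strands, occurred 4 times for Lamp1, beginning 61, 45, 28 and 15 bases before the start. It occurred 2 times for Ctsd, at 245 and 98 bases, and 1 time for the downstream start of Gzmm, at 9 bases. It was not among the letters of these windows for Cst7, Cst3, Nkg7 or Ctss. Of 32851 windows of the same length 6.02% held it. A further 4 motifs were searched for on both strands. The T-box core GGTGTG, in 16.3% of all windows, occurred for Nkg7 and the downstream start of Gzmm. The Runx core TGTGGT, in 14% of windows, occurred for Cst7, Nkg7, Lamp1 and the upstream start of Gzmm. The letters CGGAAG, a form of the Ets site, in 13.6%, occurred for Cst3, and the TATA box letters TATAAA, in 12.4%, for Ctss. Other forms of the Ets site, such as AGGAAG, were not searched for. The Runx match of Lamp1, on the other strand, directly follows one of its E-box cores without overlap. These matches are descriptions of the letters and of nothing bound there.

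The 10 lists around the chosen genes named 191 distinct genes, of which 142 had a row and 132 were not among the 10. Of these 132, limma called 3 lower and 0 higher, or 2.27%, against 4.47% of all genes. At an unadjusted p under 0.05, 18 were higher and 12 lower, or 22.7%, against 21.2% of all genes. DESeq2 on recovered reads called 11 of the 126 it tested, 6 higher and 5 lower. That is 8.73%, against 8.90% of all genes it tested, so by these counts the wider genes were close to the background. The 3 lower genes were Ctso, Stx7 and Arsb.

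**Figure D4:**
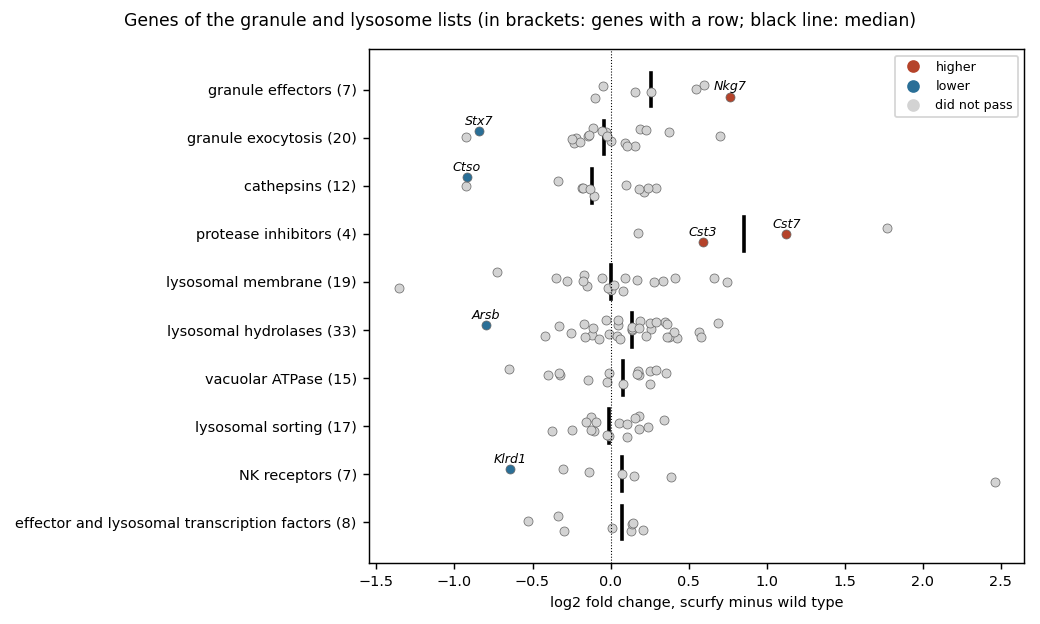
Log2 fold change (scurfy minus wild type) of each gene of the 10 granule and lysosome lists that had a row, 1 point per gene, with the list's median as a black line and limma calls coloured. Apart from Cst7, Cst3 and Nkg7 no point is called higher, and Stx7, Ctso, Arsb and Klrd1 are called lower.

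Of 15 listed cathepsins 12 had a row, and Ctso, a papain-type protease, was the one called. It fell from 362, 282 and 318 normalized counts in wild type to 165, 203 and 142 in scurfy, with no overlap (log2 fold change -0.92, SE 0.19, limma adjusted p = 0.0185). Its call ended when scurfy library 3, wild-type library 1 or wild-type library 3 was omitted (highest adjusted p = 0.0655). The median of the 12 was -0.12. Of 10 listed protease inhibitors 4 had a row. Besides Cst7 and Cst3 these were Cstb, the cytosolic cystatin B, with means of 1574 ± 112 (scurfy) and 1392 ± 127 (wild type) that did not pass (adjusted p = 0.387), and Serpinb1a.

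Of 17 granule effector genes 7 had a row, with Nkg7 the one called and a median of 0.26. Granzyme genes other than Gzmm and the death ligand Fasl had no row, which says nothing of their level, since how genes were kept for the table was not stated. Prf1, the gene of perforin, was at 254, 261 and 157 normalized counts in scurfy and at 238, 173 and 184 in wild type (log2 fold change 0.15, 95% interval from -0.33 to 0.64). Srgn, whose product serglycin packs granules, was the most abundant by count, at 12931 ± 640 and 13846 ± 577 (log2 fold change -0.10, adjusted p = 0.623).

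The release machinery of granules had 20 of 21 genes with a row and a median of -0.04. Stx7, a syntaxin of late endosomes, fell from 247, 213 and 231 normalized counts in wild type to 125, 137 and 123 in scurfy (log2 fold change -0.84, SE 0.19, limma adjusted p = 0.0268). Leaving out any 1 of the 6 libraries ended this call (highest adjusted p = 0.0841). All 33 lysosomal hydrolases had a row, with a median of 0.14, 22 above 0 and 11 below. Arsb, an arylsulfatase that degrades glycosaminoglycans, fell from 422 ± 82.5 to 240.2 ± 19.6 (SD, n = 3 each, log2 fold change -0.80, SE 0.17, limma adjusted p = 0.0221). Its call ended without scurfy library 1, scurfy library 2, wild-type library 2 or wild-type library 3 (highest adjusted p = 0.0936).

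No gene was called by limma among 19 lysosomal membrane genes, 15 subunits of the vacuolar ATPase, 17 sorting genes or 8 transcription factors of effector cells and lysosomes. At an unadjusted p under 0.05 there were 6, 3, 1 and 1, in that order of lists, beside the 21.2% of all genes given above. DESeq2 called Laptm4a and Atp6v1d lower. The medians were 0.00, 0.08, -0.01 and 0.07. Closest to the threshold were Laptm4a (log2 fold change -0.73, adjusted p = 0.0839) and the lysosomal channel gene Mcoln1 (0.41, adjusted p = 0.0958), Atp6v1d (-0.40, adjusted p = 0.0510) and Atp6ap2 (-0.65, adjusted p = 0.163), and Ap3m1 and Nagpa (both adjusted p = 0.236). Among the transcription factors they were Hopx (-0.53, adjusted p = 0.127) and Id2 (-0.33, adjusted p = 0.253). Both of these were lowest in scurfy library 3, Hopx at 228 and Id2 at 1077 normalized counts, the library in which Klrd1 and Ctsw were lowest too.

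Of 26 listed receptors of natural killer type 7 had a row, and Klrd1 was the one called, with a median of 0.08. The NKG2 partner genes Klrc1, Klrc2 and Klrc3 had no row. H2-T23, which encodes Qa-1, the ligand of the CD94 receptors, was at 5433, 5166 and 4247 normalized counts in scurfy and at 6150, 6039 and 6013 in wild type. Its groups did not overlap, and its log2 fold change of -0.30 did not pass (95% interval from -0.54 to -0.07, limma adjusted p = 0.126).

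The genes whose pattern over the 6 libraries lay closest to that of Cst7 were the ribosomal protein pseudogene Rpl17-ps8, ENSMUSG00000115685, Ost4 and Ppia. Their root mean square difference from Cst7 in centred log2 values was 0.12, 0.12, 0.17 and 0.17, over 9179 genes whose mean reached 50. For Klrd1 they were Btbd10 (0.04), Gm20033 (0.05), Gimap4 (0.06) and Ube2e3 (0.07). Pseudogenes share reads with their parent genes, so the first of these values is uncertain.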

How the data were processed

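Messenger RNA of 12 samples in 4 groups of 3 was sequenced on a NextSeq 500 after oligo-dT priming and linear amplification, per the labels' protocols. The submitters' processing notes name Trim Galore 0.4.4, STAR 2.6, featureCounts, edgeR, DESeq2 and build NCBIM37, without roles. Whether counting used strand was not stated. Of the 2 deposited tables both hold identical values for the 6 unstimulated libraries, so 1 was used. Per the file headers, its library columns carry sample titles, and the values are a deposited signal, read counts divided by a size factor per library. In each library 100% of nonzero values were whole multiples of 1 read within 0.01 read. The authors' deposited log2 fold change, its standard error and adjusted p-value were used for reference. The smallest mean in the table is 7.10, and the filter behind it was not stated.

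As the values are not raw counts, limma 3.58.1 (R 4.3.3) was run on log2(value + 1) with variance trend and robust moderation, no covariate and Benjamini-Hochberg adjustment over 11581 genes, and was tested on simulated data. Fold changes on this scale (scurfy minus wild type) understate changes of low genes. Exonic lengths came from GENCODE M21 (11571 IDs matched). Alternatives included edgeR 4.0.16 and DESeq2 1.42.0 on recovered reads. Chi-square per gene between replicates was 6.86 to 32.4, so no library was a duplicate. The members and lists were chosen with earlier results of these data known. Named were the 10 genes, list genes past the threshold or else the 2 of smallest p, and the 4 nearest patterns. Prf1, Srgn, Ctsc, Cstb, H2-T23, Cd68, H2-Aa, H2-Ab1, Cd8b1, Ighm, Ccr7 and Serpinb1a were named after their values were seen. So were genes named from DESeq2.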

Additional observations from a re-analysis of the deposited data

How the results depend on the processing

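Cst7 and Nkg7 stayed called under every alternative run except limma without variance trend and robust moderation, which called 0 of the 10 genes and 0 genes in all (2106 at an unadjusted p under 0.05, 4 of them among the 10). Adjusted p there was 0.117 for Cst7, 0.158 for Nkg7, 0.171 for Cst3 and 0.216 for Klrd1. No log2 fold change of a called gene changed sign. Besides the cases given with Cst3 and Klrd1 above, Cst3 lost its call with lengths over basic transcripts only, a setting chosen after seeing the data (adjusted p = 0.154). Over all genes, 518 passed. The count was 930 on library size alone (169 higher and 761 lower, against 246 and 272, with a median log2 fold change of -0.13 against 0.01), 891 with DESeq2, 302 with the length trend removed and 249 with basic lengths. Leaving out 1 library gave 113 to 403 genes, and 0 to 1 of the 10 called lower. Lamp1, near 0, was at -0.14 on library size alone.

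Replicate numbers did not pair the libraries: deviations of same-numbered libraries correlated at 0.01, -0.04 and -0.07, and no library correlated best with its own number. The replicate block gave 372 genes and 0 of the 10 called lower (Klrd1 adjusted p = 0.0679), with Cst7, Nkg7 and Cst3 still called. Gzmm rested on 6 to 18 reads per library. Whether depth or the number of libraries limited the calls was not tested.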

Other observations

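Lysosomal hydrolases held a group of genes just under the threshold that had higher values in every scurfy library than in any wild-type library, named here after their values were seen. Psap, whose product is cut into the saposins that help degrade sphingolipids, was at 1517, 1316 and 1599 normalized counts in scurfy and at 1045, 1139 and 1147 in wild type (log2 fold change 0.41, limma adjusted p = 0.0555). Gaa, the acid glucosidase that degrades glycogen, was at 207 ± 7.52 and 128 ± 6.01 (SD, n = 3 each, log2 fold change 0.69, limma adjusted p = 0.0573). Man2b1, a lysosomal mannosidase, was placed alike (0.36, limma adjusted p = 0.0788). DESeq2 on recovered reads called these 3 genes higher, with adjusted p from 0.0207 to 0.0457.

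Hcst, the adaptor DAP10 of the activating receptor NKG2D, was at 6919, 7680 and 7431 normalized counts in scurfy and at 6479, 4962 and 5475 in wild type (log2 fold change 0.39, limma adjusted p = 0.0658), while Klrd1 in the same list fell. Hcst has 722 bases of exon, and genes below 1000 bases had a median log2 fold change of 0.33. Vamp8, a fusion protein of late endosomes and granules, was at 1791 ± 196 and 1376 ± 55.3 (SD, n = 3 each, log2 fold change 0.38, limma adjusted p = 0.0697). DESeq2 called both higher (adjusted p = 0.0274 and 0.0347). The protease inhibitor gene Serpinb1a had the largest log2 fold change of its list, 1.77 (SE 0.60), and did not pass (limma adjusted p = 0.101). It was at 38.7, 17.1 and 46.1 in scurfy and 12.0, 11.6 and 4.20 in wild type, from only 5 to 39 reads each.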
